A study of Homo sapiens with 12 samples.

Results

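The third day of TAZ-4SA induction was examined by setting MCF10A cells after 72 h in doxycycline (Dox) against the same cells after 48 h. The comparison took all libraries labelled with these 2 times, 3 per time, which makes 6 of the 12 libraries in the series. The other 6 are 3 libraries after 24 h in Dox and 3 without Dox, used below only for earlier states. MCF10A is a non-tumorigenic line of human breast epithelium, and all groups, No Dox included, carried a transduced, tet-inducible TAZ-4SA. Dox was given at 0.05 µg/mL at each time, so both sides of the comparison expressed the transgene. The sources used here do not state whether the line was a single clone or whether replicates were grown as separate cultures, so the spread behind the p-values may be technical. Cells kept for 72 h without Dox, or given Dox without the transgene, were not analysed here, so time in Dox, time under TAZ-4SA and time in culture cannot be told apart.

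TAZ, encoded by WWTR1, is a co-activator with no DNA-binding domain of its own. It reaches DNA through TEAD factors, and the LATS kinases of the Hippo pathway keep it out of the nucleus by phosphorylating serines that the 4SA form lacks. In breast epithelium TAZ is known for driving growth, migration and a shift of cell identity. Genes switched on by such a factor may respond directly or through the factors, stress pathways and cell cycle changes that follow, and the order of these layers is what a time step can describe.

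Totals were 20325725, 15787241 and 26570132 expected counts at 72 h, against 20412145, 22956337 and 15382564 at 48 h. In a principal component analysis of the 500 genes that varied most, the leading component (45.7% of the variance) separated the times, with scores of 12.99 to 17.51 at 72 h and -17.51 to -13.7 at 48 h. The second (16.4%) set the shallowest library of each time apart, at -12.02 (72 h replicate 2) and -13.14 (48 h replicate 3). All 15 markers of the mammary epithelial line were found, and their summed level was 14290 to 15320 normalised counts (CPM, counts scaled to library size) at 72 h and 14300 to 15210 CPM at 48 h. Among markers of other cells, PTPRC (leukocytes), COL1A2 and COL3A1 (fibroblasts) and FABP4 (adipocytes) were at 0 in all 6 libraries. Other members of these lists were found at low levels. COL1A1 was at 1.04 to 2.19 CPM over the 6 libraries. CD68 was at 4.26 to 5.13 CPM at 72 h and 2.13 to 2.68 CPM at 48 h, and CD14 at 2.4 to 3.19 and 2.85 to 4.48 CPM. Library 48 h replicate 1 was the one most tilted by transcript length. Over the 2693 longest of the genes checked its median log2 CPM lay 0.11 below the mean of the 6 libraries, and over the 2694 shortest 0.10 above it, while the medians of the other 5 libraries lay between -0.08 and 0.07.

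Of 14822 genes tested, 2763 were higher at 72 h (18.6%) and 2979 lower (20.1%) at an edgeR adjusted p under 0.05. In the text below, rose and fell mean that this test was passed. Most of these differences were small, with a median absolute log2 fold change of 0.36 among the 5742 genes that passed, and the median over all genes tested was 0. A gene was called when it also differed at least 2-fold. By that rule 341 genes were called higher (2.30%) and 139 lower (0.938%). The 3 and 3 libraries did not overlap for 462 of these 480 genes, against 47.7% of all genes tested. The calls were made from these same libraries, so the lack of overlap is no separate support for them. When the 2-fold threshold itself was tested (glmTreat), 18 genes passed upwards and 8 downwards.

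The transgene was present at both times. WWTR1 was at 974, 1061 and 948 CPM in the 72 h libraries and at 763, 860 and 907 CPM in the 48 h libraries, and reads from the transgene and from the resident gene are summed in these values. The groups did not overlap, and the difference was small (log2 fold change 0.24, SE 0.06, edgeR adjusted p = 0.00536). It lost significance once effective lengths entered the fit (0.16, adjusted p = 0.276). Of the 8 measured TEAD, YAP/TAZ and VGLL genes, 2 rose and 1 fell, which for so short a list is near the shares over all genes. VGLL3, a TEAD-binding cofactor that competes with TAZ and YAP for these factors, was at 149, 152 and 135 CPM at 72 h, against 64.7, 71.9 and 78.3 CPM at 48 h (log2 fold change 1.02, SE 0.07, edgeR adjusted p = 9.54e-10). TEAD4 fell to 43.1, 46 and 44.3 CPM at 72 h, against 57.4, 51 and 54.3 CPM at 48 h (-0.29, adjusted p = 0.00209). TEAD1 and YAP1 had log2 fold changes of -0.17 (adjusted p = 0.061) and -0.09 (adjusted p = 0.293), but TEAD1 passed without 48 h replicate 1 (-0.23, adjusted p = 0.0126) and without 72 h replicate 2 (-0.20, adjusted p = 0.0473).

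The YAP/TAZ target signature, a list of genes used to read TAZ activity, split into members that rose and members that did not pass the test. Of 26 measured members 12 rose, 2 fell and 12 did not pass, with a median log2 fold change of 0.11. With effective lengths in the edgeR fit 9 rose and 4 fell, and without 48 h replicate 2 also 4 fell. ANKRD1, a nuclear cofactor best known from stretched muscle, was at 375, 407 and 418 CPM at 72 h, against 177, 182 and 171 CPM at 48 h. Each 72 h library was above every 48 h library (log2 fold change 1.18, SE 0.06, edgeR adjusted p = 3.58e-12). The secreted matrix protein CCDC80 rose by 0.57 and the insulin-like growth factor carrier IGFBP3 by 0.54. TGFB2, a TGF-beta ligand, also rose (0.54). The matricellular proteins CCN1 and CCN2, both standard TAZ readouts, had log2 fold changes of 0.12 (adjusted p = 0.14) and 0.04 (adjusted p = 0.672). AREG, an EGF receptor ligand, was at 946, 963 and 1022 CPM at 72 h and at 980, 948 and 969 CPM at 48 h, and its groups overlapped. Hippo kinases and upstream genes rose for 6 of 27 members (22.2%) and fell for 5 (18.5%), shares near those over all genes, with 3 rising and 4 falling without 48 h replicate 1, 3 rising and 3 falling without 72 h replicate 2 and 3 falling without 72 h replicate 3. The kinase TAOK3 rose most (0.54). NF2, the membrane scaffold merlin, fell by 0.69 on the log2 scale and AJUBA, an inhibitor of LATS kinases, fell by 0.44, while the kinase LATS2 was at -0.02 (adjusted p = 0.835).

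The promoter of ANKRD1 is shown because this gene rose most in the signature and its start is preceded by 2 copies of the core TEAD box. The box was searched as GGAATG on both strands in the 250 bases before each RefSeq start (GRCh38.p14), and capitals mark it. The printed bases are chr10:90921190-90921327, minus strand, and the boxes begin 220 and 128 bases before the start.
ANKRD1: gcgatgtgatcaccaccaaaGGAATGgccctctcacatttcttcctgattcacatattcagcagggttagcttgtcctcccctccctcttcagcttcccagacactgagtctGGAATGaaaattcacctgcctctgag
At least 1 such box was present in 11.9% of 27195 RefSeq promoters and in 9.35% of the 10819 tested genes that had one. Promoters were at hand for 19 of the 26 signature members (73.1%), under the 80% set as the least for reading a list's share. A match of these letters is a description, and binding was not tested here.

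The cell cycle genes parted by phase. Genes of the G1/S transition and of DNA replication fell nearly as a block, with 46 of 49 measured members lower, 1 higher and 2 not passing (median log2 fold change -0.46, against 20.1% of all genes lower). This fall is from the 48 h level, not from No Dox. The list's median had been 1.8 at 24 h over No Dox and -0.17 at 48 h over 24 h. The activator E2F2, which switches on S-phase genes, was at 5.57, 5.7 and 6.79 CPM at 72 h, against 14.2, 14.4 and 17.2 CPM at 48 h. CCNE2, an E-type cyclin that triggers S phase, was at 7.33, 9.08 and 8.73 CPM at 72 h, against 18.8, 19.3 and 19.5 CPM at 48 h. In both genes all 72 h libraries lay below all 48 h libraries, with log2 fold changes of -1.32 (SE 0.11, edgeR adjusted p = 2.1e-08) and -1.19 (SE 0.11, adjusted p = 6.53e-08). E2F1 fell by 0.90 on the log2 scale, to 20.8, 15.9 and 17.3 CPM at 72 h, against 33, 33.2 and 35.1 CPM at 48 h. UHRF1, which carries DNA methylation through replication, fell by 0.80.

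Over the whole list log2 fold changes ran from -1.32 to 0.22. A licensing gene and a fork gene are given as further examples, chosen after their values were seen. The helicase subunit MCM3 was at 145, 144 and 157 CPM at 72 h, against 273, 265 and 267 CPM at 48 h. PCNA, the sliding clamp of the polymerases, was at 144, 145 and 150 CPM at 72 h, against 257, 245 and 233 CPM at 48 h. Their log2 fold changes were -0.85 and -0.74, and neither gene overlapped between times. The only member that rose was the kinase CDC7, which fires origins, at 0.22. Of 13 G1 cyclins and CDK inhibitors, 5 rose, 3 fell and 5 did not pass (median 0.11), or 3 rose and 2 fell with effective lengths in the edgeR fit. Among the inhibitors, CDKN1A, CDKN1B and CDKN1C rose, CDKN2C fell and CDKN2D did not pass. CDKN1A, which encodes p21, was at 333, 289 and 318 CPM at 72 h, against 190, 194 and 182 CPM at 48 h (log2 fold change 0.73, SE 0.06, edgeR adjusted p = 9.11e-09). CDKN1C, the p57 inhibitor, was at 28.4, 22.5 and 26.7 CPM at 72 h, against 13.9, 13.7 and 10.6 CPM at 48 h (1.02). CCND1, the D-type cyclin of early G1, fell by 0.42 on the log2 scale.

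Of 46 G2/M and mitosis genes 21 rose (45.7%, against 18.6% of all genes), 5 fell (10.9%, against 20.1%) and 20 did not pass, with a median log2 fold change of 0.12. ASPM, a spindle pole protein, was at 410, 433 and 388 CPM at 72 h, against 248, 301 and 312 CPM at 48 h (log2 fold change 0.51). The microtubule depolymerase KIF2C was at 168, 163 and 169 CPM at 72 h, against 125, 123 and 114 CPM at 48 h (0.47), and the centrosomal kinase NEK2 rose by 0.42. All 3 separated the times without overlap. The transcription factor MYBL2, which helps to switch this programme on, was among the 5 that fell (-0.42), with FOXM1 (-0.33), SPC25, BIRC5 and KIF23. Without 48 h replicate 1, 3 members fell. Fanconi and homologous recombination genes, which repair stalled forks, had 16 of 29 members lower and 1 higher (median -0.23), or 9 lower and 0 higher with effective lengths in the fit. The nuclease EXO1 led them at 52.2, 55.2 and 52.4 CPM at 72 h, against 83.5, 86.1 and 88.3 CPM at 48 h (-0.69, edgeR adjusted p = 4.29e-09).

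**Figure D1:**
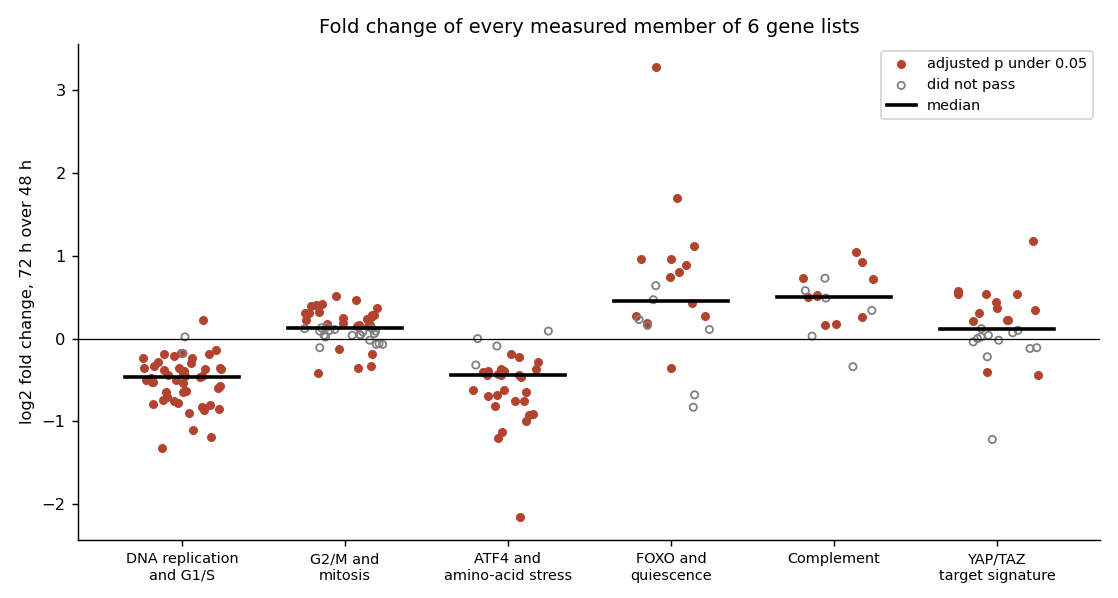
Log2 fold change of every measured member of 6 gene lists at 72 h over 48 h (vertical axis), with filled points for genes at an edgeR adjusted p under 0.05, open points for the rest and a bar for the list's median. The replication and ATF4 lists lie almost wholly below 0 (medians -0.46 and -0.44), the mitotic list straddles it (0.12), and the highest point of the FOXO list is DEPP1, a fitted value from 14 counts at 72 h and 1 count at 48 h.

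The promoters of the mitotic list are shown for the cell cycle homology region (CHR), the element through which the DREAM and MYBL2 complexes act on late cell cycle genes. It was searched as TTTGAA, and the CCAAT box, bound by NF-Y, as CCAAT, both on either strand, and the letters of the 2 motifs can overlap by a few bases. Capitals mark the CHR in 2 mitotic genes picked after their values were seen, the mitotic cyclin CCNB2 (chr15:59105097-59105142, plus strand, log2 fold change 0.15) and the kinesin KIF18A (chr11:28108157-28108186, minus strand, 0.25).
CCNB2: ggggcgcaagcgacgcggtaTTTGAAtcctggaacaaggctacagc
KIF18A: gctgaggaaagtggcttgggTTTGAAtatt
The CHR begins 29 and 10 bases before these starts. It was present in 19 of 38 promoters of the mitotic list (50%) and in 1 of 43 of the replication list (2.33%), against 8.49% of tested genes and 13.6% of all RefSeq promoters. CCAAT was present in 73.7% of the mitotic and 55.8% of the replication promoters, against 35.1% of tested genes and 33% of all promoters. Of the 19 mitotic genes with a CHR, 7 rose (CCNB2, KIF18A and ASPM among them), 2 fell (KIF23 and SPC25) and 10 did not pass. Promoters were at hand for 19 mitotic genes that rose, and these 7 were 36.8% of them, against 50% with a CHR over the list. The 2 printed genes thus do not tie the rise to this element.

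The amino-acid stress response fell as a group. ATF4 is the transcription factor that cells translate when amino acids run short or proteins misfold in the endoplasmic reticulum, and its targets take up, make and load amino acids. Of 31 measured ATF4 and amino-acid stress genes, 27 fell, none rose and 4 did not pass (median log2 fold change -0.44). CHAC1, which degrades glutathione, was at 4.25, 3.82 and 5.07 CPM at 72 h, against 20, 18.5 and 21.3 CPM at 48 h. The glycine transporter SLC6A9 was at 13.9, 13.8 and 13.8 CPM at 72 h, against 32.8, 29.8 and 32.9 CPM at 48 h. SESN2, a leucine sensor that restrains mTORC1, was at 18.9, 18.7 and 19 CPM at 72 h, against 44.5, 39.9 and 39.6 CPM at 48 h. None of these groups overlapped, and the log2 fold changes were -2.16 (SE 0.15), -1.20 (SE 0.08) and -1.13 (SE 0.08), with edgeR adjusted p of 9.27e-10, 1.57e-09 and 2.54e-09. The pseudokinase TRIB3, a feedback inhibitor of ATF4, was at 69.6, 55.7 and 66 CPM at 72 h, against 139, 123 and 121 CPM at 48 h (edgeR adjusted p = 1.46e-08). ATF4 itself, chosen after its values were seen, fell by 0.44.

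Genes that load and use amino acids fell with them. Of 20 tRNA synthetases, 15 fell and none rose (median -0.28). The methionyl enzyme MARS1 was at 217, 212 and 212 CPM at 72 h, against 325, 340 and 334 CPM at 48 h (log2 fold change -0.64, edgeR adjusted p = 1.22e-09), and the glycyl and cysteinyl enzymes GARS1 and CARS1 fell by 0.63 and 0.60. EIF5, which helps the ribosome to select a start codon, was at 101, 114 and 114 CPM at 72 h, against 253, 251 and 247 CPM at 48 h (-1.19, SE 0.05, adjusted p = 1.43e-12). Of 27 nucleolar ribosome biogenesis genes 21 fell and none rose (median -0.33), among them RRS1 at 36.5, 40.5 and 38.3 CPM at 72 h, against 76.1, 69.7 and 73.9 CPM at 48 h (-0.93). The ribosomal protein genes themselves showed no such movement, with 5 of 69 higher, 3 lower and a median of 0. Those counts depended on single libraries, with 2 higher and 11 lower without 72 h replicate 3, 10 higher without 72 h replicate 1 or 72 h replicate 2, 9 higher without 48 h replicate 1, 3 higher without 48 h replicate 2 and 2 higher without 48 h replicate 3. Proteasome subunits fell for 20 of 31 (median -0.18), for example the base ATPase PSMC4 (-0.54).

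The step into 72 h was also compared with the step before it, as the difference of both log2 steps in the same fit. The 2 steps share the 48 h libraries, so a high or low value there enters both with opposite sign. This difference was called for 450 of 14822 genes (3.04%), 190 upwards and 260 downwards. Of the 31 genes of the ATF4 list, 24 were called downwards and none upwards. CHAC1 had a log2 fold change of 2.90 at 48 h over 24 h and of -2.16 at 72 h over 48 h. SLC6A9 had 2.25 and -1.20, and SESN2 1.26 and -1.13. Among tRNA synthetases, MARS1, GARS1 and CARS1 were called in the same direction. None of the 49 replication genes and none of the 46 mitotic genes was called in either direction by this contrast, although 23 and 25 of them passed its adjusted p.

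**Figure D2:**
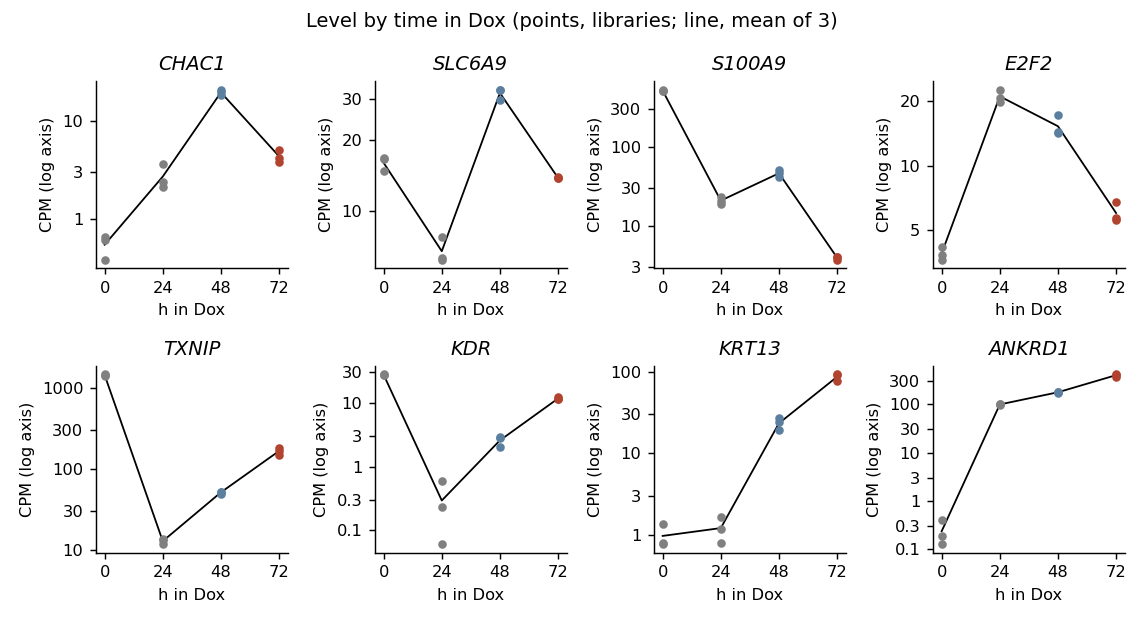
CPM (log axis) of 8 genes by hours in Dox, where 0 is No Dox, points are libraries (48 h blue, 72 h red, earlier grey) and lines join the means of 3. CHAC1 and SLC6A9 are highest at 48 h in Dox, S100A9 is lowest at 72 h, E2F2 is highest at 24 h, TXNIP and KDR are lowest at 24 h, and KRT13 and ANKRD1 are highest at 72 h.

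Promoters of the stress genes are shown for the amino-acid response element, the composite site to which ATF4 binds with a CEBP partner. It was searched as TGATGNAA on both strands, and capitals mark it in ASNS, asparagine synthetase (chr7:97872449-97872496, minus strand), in CHAC1 (chr15:40953242-40953289, plus strand) and in AARS1, the alanyl-tRNA synthetase (chr16:70289666-70289713, minus strand), where the last 2 carry it on the opposite strand to the one printed.
CHAC1: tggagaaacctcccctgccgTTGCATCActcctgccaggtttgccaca
ASNS: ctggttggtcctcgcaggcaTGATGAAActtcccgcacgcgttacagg
AARS1: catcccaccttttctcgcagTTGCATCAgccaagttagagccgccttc
The element begins 209, 68 and 187 bases before these starts. It was found in 3 of 25 promoters of the ATF4 list (12%) and in 2 of 16 of the tRNA synthetases (12.5%), against 1.4% of tested genes and 3.18% of all RefSeq promoters. ASNS and AARS1, printed for their sequence after their values were seen, fell by 0.28 and 0.34 on the log2 scale, much less than CHAC1. These letters were absent from the windows of most members that fell, and nothing follows from that for ATF4.

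Many of the genes called higher at 72 h had been switched down on the first day in Dox. The state at 24 h was taken against No Dox, a comparison that shares no library with this one. Of the 341 genes called higher, 226 (66.3%) had been called lower at 24 h and 27 (7.9%) higher, against 17.7% lower and 12% higher among all genes tested. Their mean at 72 h was under that of No Dox for 169 and over it for 172, a split near that of all genes tested (7581 under and 7240 over). The 139 genes called lower were more evenly spread, with 42 (30.2%) called higher and 35 (25.2%) lower at 24 h.

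**Figure D3:**
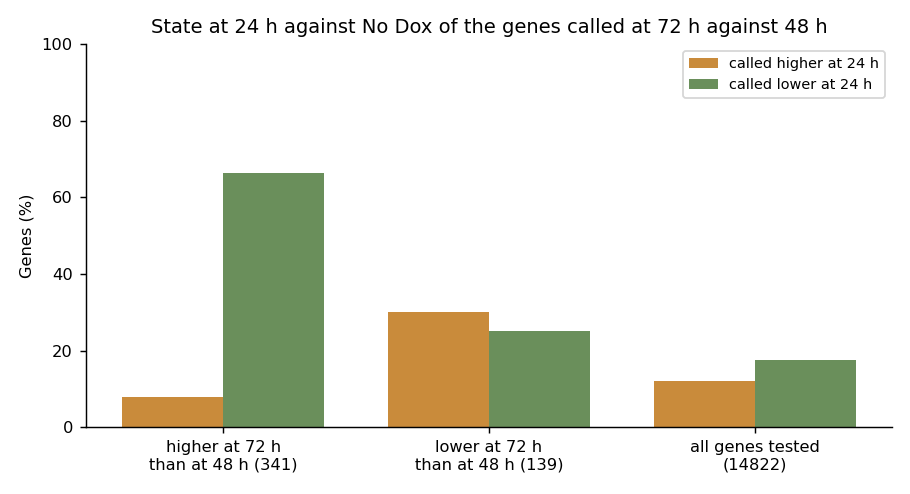
Percent of genes called higher (ochre) or lower (green) at 24 h against No Dox, for the 341 genes called higher and the 139 called lower at 72 h against 48 h and for all 14822 genes tested. The bar for genes called lower at 24 h stands at 66.3% in the first set and at 17.7% over all genes.

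TXNIP and KDR were of this kind. TXNIP, an arrestin-like protein that limits glucose uptake, was at 181, 151 and 169 CPM at 72 h, against 49.6, 52.3 and 52.8 CPM at 48 h (log2 fold change 1.70, SE 0.06, edgeR adjusted p = 1.09e-13). The means of TXNIP had been 1447 CPM in No Dox and 12.9 CPM at 24 h. KDR, a VEGF receptor usually studied in endothelium, was at 12.5, 11.5 and 11.3 CPM at 72 h, against 2.78, 2.96 and 2.01 CPM at 48 h (2.15, adjusted p = 2.92e-09). Of the other endothelial markers, PECAM1, VWF, CDH5 and CLDN5 stayed under 1 CPM in all 6 libraries. TEK was at 0.929, 0.376 and 0.686 CPM at 72 h, against 1.34, 1.13 and 1.88 CPM at 48 h. LAPTM5, a lysosomal membrane protein, was at 33.5, 28.7 and 31.8 CPM at 72 h, against 6.16, 6 and 4.54 CPM at 48 h (2.48, adjusted p = 1.05e-12). It is also abundant in leukocytes, whose 8 listed markers summed to 7.21 to 7.87 CPM at 72 h and 5.45 to 6.61 CPM at 48 h, with PTPRC at 0. In TXNIP, KDR and LAPTM5 the times were far apart and the 72 h means were still below those of No Dox (1447, 27.6 and 35.7 CPM).

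FOXO factors switch on genes of the resting and starved cell, and of 20 measured FOXO and quiescence genes 12 rose, 1 fell and 7 did not pass (median log2 fold change 0.45). Earlier medians of this list were -2.75 at 24 h over No Dox and 1.07 at 48 h over 24 h. ZBTB16, a transcriptional repressor, was at 30.4, 27.9 and 25.5 CPM at 72 h, against 12, 12.7 and 13.9 CPM at 48 h (1.12). TSC22D3, a glucocorticoid-induced leucine zipper protein, was at 73.2, 57.2 and 64.9 CPM at 72 h, against 33.6, 34 and 32.9 CPM at 48 h (0.96), and KLHL24, an adaptor for ubiquitin ligases, rose by the same amount. CCNG2, a cyclin of cells that leave the cycle, rose by 0.80. DEPP1, named after its values were seen, had 14 counts over the 72 h libraries and 1 over the 48 h libraries, a depth-scaled ratio of 13.1 (95% exact binomial interval 2 to 555, counting error only). The single member that fell was INSR, the insulin receptor, at 10.9, 12.3 and 11.8 CPM at 72 h, against 14.7, 14.7 and 15.6 CPM at 48 h (-0.36, edgeR adjusted p = 0.00614, and 0.178 with effective lengths).

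Complement genes, which tag microbes and start the complement cascade, rose for 10 of 16 members with none falling (median 0.51). The protease C1R was at 14.6, 14.2 and 15.8 CPM at 72 h, against 10.7, 10.7 and 9.4 CPM at 48 h (log2 fold change 0.53, SE 0.10, edgeR adjusted p = 0.000395). The groups did not overlap, and the 72 h mean of C1R (14.9 CPM) was below that of No Dox (111 CPM). Interferon-stimulated genes rose for 13 of 30 and fell for 2 (median 0.19). IFIT2, of a family that binds foreign RNA, was at 22.5, 23.2 and 26.9 CPM at 72 h, against 10.1, 10.1 and 8.56 CPM at 48 h (1.33, adjusted p = 2.97e-08). IFIT3 rose by 0.72, while 15 members, among them the effector MX1 and the modifier ISG15, did not pass.

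Metallothioneins, small zinc-binding proteins, rose for 3 of 5. MT2A was at 3143, 2619 and 3276 CPM at 72 h, against 1953, 1596 and 1572 CPM at 48 h (log2 fold change 0.82), and MT1X and MT1E rose by 0.82 and 0.56. Members of this family are close copies, so reads can be divided wrongly between them. Of the 5 measured, 0 carried the shared-read mark (an SD from shared reads over 5% of the count). The acute-phase proteins SAA1 and SAA2, also near copies of each other, rose by 0.41 and 0.57, and the membrane mucin MUC1 by 0.51.

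Epithelial identity genes moved in both directions. KRT13, a keratin of mucosal surfaces, was at 91.4, 76.7 and 93.9 CPM at 72 h, against 24, 27 and 19.3 CPM at 48 h (log2 fold change 1.89, SE 0.11, edgeR adjusted p = 6.1e-11). Its means had been 0.961 CPM in No Dox and 1.2 CPM at 24 h. KRT15, a keratin of basal progenitors, was at 11.2, 15.9 and 14.1 CPM at 72 h, against 4.67, 4.39 and 4.02 CPM at 48 h (1.64), after 196 CPM in No Dox. The simple-epithelium keratins KRT8 and KRT18 rose by 0.43 and 0.30. KRT7, another keratin of simple epithelium, fell by 0.27, and the basal keratin KRT5 fell by 0.22. KRT80 was at 21.2, 21.6 and 18.9 CPM at 72 h, against 43.5, 45.7 and 45.3 CPM at 48 h (-1.13).

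Cell contact genes differed by type of junction. Of 16 tight junction genes, 8 rose and 1 fell (median 0.24). CGN, the junctional adaptor cingulin, was at 55.5, 55 and 51.3 CPM at 72 h, against 35.6, 36.9 and 30.7 CPM at 48 h (log2 fold change 0.64), and the barrier protein CLDN7 rose by 0.64. Of 9 desmosome genes 5 rose and 1 fell (median 0.18). None of 6 connexins, which form gap junctions, rose and 3 fell (median -0.24), or 1 without 48 h replicate 1. The desmosomal cadherin DSG3 rose by 0.71 and the basal cadherin CDH3 by 0.52. The epithelial cadherin CDH1, named after its values were seen, was at 340, 334 and 333 CPM at 72 h, against 251, 260 and 270 CPM at 48 h. Of 16 cadherins and factors of epithelial-mesenchymal transition (EMT), a mixed list with no direction for EMT, 7 rose and 1 fell (median 0.25). The one that fell was SNAI2, a repressor that drives EMT, at 5.67, 6.7 and 5.83 CPM at 72 h, against 8.59, 10.6 and 9.79 CPM at 48 h (-0.68). ZEB1, another such repressor, rose by 0.42 (edgeR adjusted p = 0.0334), but did not pass with effective lengths in the fit (0.16, adjusted p = 0.669) or in 5 of the 6 fits that left out a library (0.33 to 0.46), the exception being that without 72 h replicate 3 (0.51). The lineage factors GRHL3, which directs barrier formation, and GATA3, which directs luminal cells, rose by 1.32 and 0.47. Of 16 basal mammary identity and hemidesmosome genes 6 rose and 3 fell (median 0.09). The lowest of them was COL17A1, a hemidesmosome collagen, which fell by 0.88 on the log2 scale.

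Integrins, the receptors for matrix, rose for 8 of 12 with none falling (median 0.37), among them the collagen receptor subunit ITGA2 at 51.2, 53 and 48.6 CPM at 72 h, against 28.1, 31.9 and 35.5 CPM at 48 h (log2 fold change 0.68). Extracellular matrix genes rose for 14 of 29 and fell for 3 (median 0.25). LOX, which crosslinks collagen, was at 146, 137 and 136 CPM at 72 h, against 63.1, 70.8 and 73.6 CPM at 48 h (1.01). Fibronectin (FN1) rose by 0.71, and the microfibril gene FBN2 was at 2407, 2322 and 2182 CPM at 72 h, against 1310, 1436 and 1627 CPM at 48 h (0.66). In ITGA2, LOX and FBN2 the lowest 48 h value was that of replicate 1, the library tilted against long transcripts, and their log2 fold changes without that library were 0.61, 0.96 and 0.60. Without that library 7 integrins and 13 matrix genes rose. With effective lengths in the edgeR fit 6 integrins rose (median 0.19) and 11 matrix genes rose and 1 fell (median 0.25). ITGA2, LOX and FBN2 had 0.65, 1.01 and 0.83 in that fit, whereas ITGB6, an epithelial integrin at 0.61 without lengths, had 0.06 (adjusted p = 0.919). The fibroblast markers summed to 2.02 to 3.44 CPM at 72 h and 1.92 to 3.03 CPM at 48 h.

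**Figure D4:**
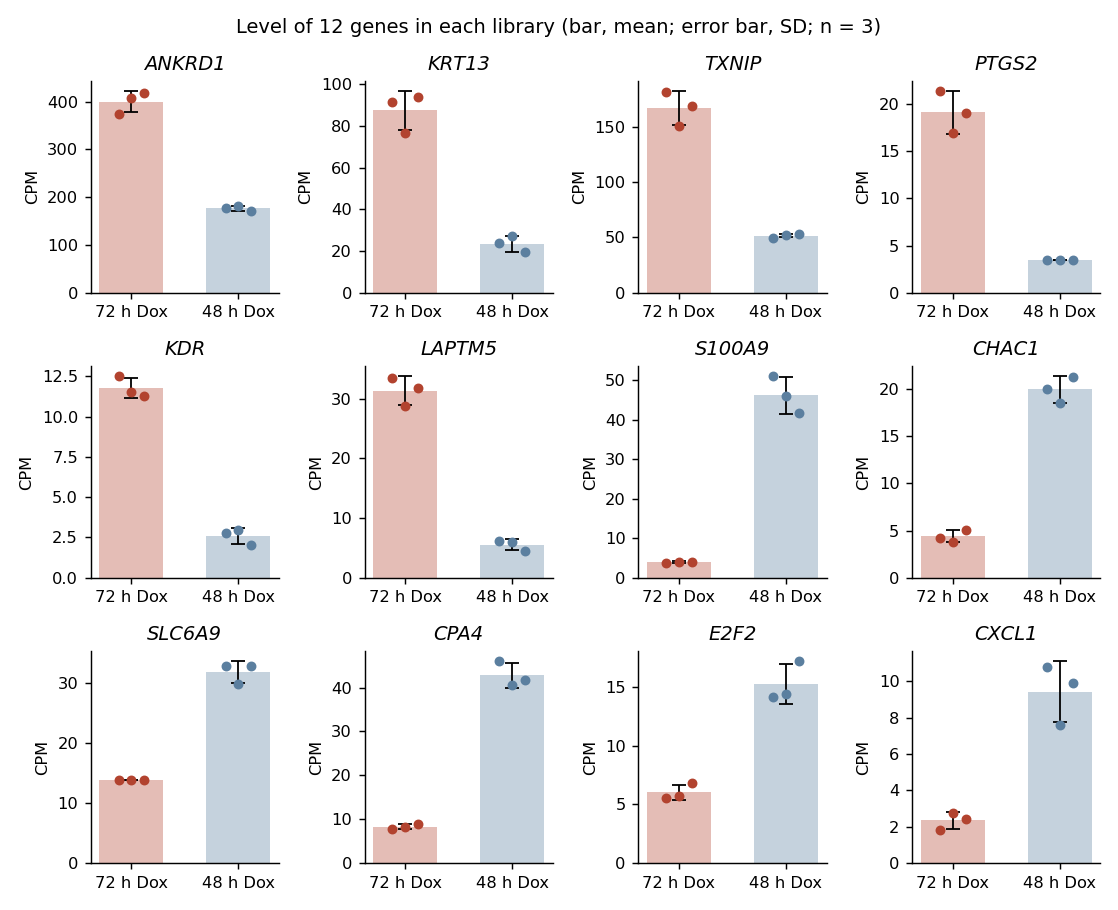
CPM of 12 genes in each library at 72 h (red, left) and 48 h (blue, right) in Dox, with bars for the mean, error bars for the SD and points for the 3 libraries. The genes shown were picked from those called between these libraries, so that none overlaps between times is no separate support. S100A9 lies at 3.72 to 4.07 CPM at 72 h against 41.7 to 51 CPM at 48 h.

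Of 19 NF-kB subunits and targets 4 rose and 4 fell (21.1% each, near the shares over all genes), with 1 falling without 48 h replicate 1 or 72 h replicate 3 and 2 without 48 h replicate 3 or 72 h replicate 1. Of 8 chemokines 1 rose and 2 fell, which for so short a list is also near the shares over all genes. S100A9, a member of the neutrophil-attracting calprotectin pair, was at 3.72, 4.07 and 4.04 CPM at 72 h, against 51, 45.9 and 41.7 CPM at 48 h (log2 fold change -3.55, SE 0.10, edgeR adjusted p = 1.33e-15). Its partner S100A8 was at 1.22, 0.689 and 1.33 CPM at 72 h, against 10.6, 8.66 and 7.52 CPM at 48 h (-2.99, SE 0.17, adjusted p = 5.45e-11). Of 14 S100 genes 5 fell and none rose, and S100A2 and S100A4 fell by 1.02 and 1.01. The chemokine CXCL1 was at 1.81, 2.76 and 2.44 CPM at 72 h, against 10.8, 7.57 and 9.92 CPM at 48 h (-2.01, adjusted p = 8.31e-09). Its means had been 170 CPM in No Dox and 35.8 CPM at 24 h.

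PTGS2, the inducible cyclooxygenase of prostaglandin synthesis, went the other way, at 21.4, 16.9 and 19.1 CPM at 72 h, against 3.43, 3.44 and 3.5 CPM at 48 h (log2 fold change 2.47, SE 0.14, edgeR adjusted p = 5.45e-11). PTGES, the enzyme downstream of it, fell by 0.62 on the log2 scale. The adhesion molecule ICAM1 was at 175, 156 and 155 CPM at 72 h, against 71.6, 67.7 and 64.7 CPM at 48 h (1.25, adjusted p = 6.19e-12). The immediate-early factor EGR1 was at 45.9, 56.9 and 50 CPM at 72 h, against 20.2, 16.5 and 20 CPM at 48 h (1.43), and FOS rose by 0.86, whereas JUN fell by 0.50 and FOSL1, a partner of TAZ and TEAD at enhancers, was at 0.10 (adjusted p = 0.34). MYC rose by 0.32. CPA4, a secreted carboxypeptidase, was at 7.77, 8.27 and 8.77 CPM at 72 h, against 46, 40.7 and 41.8 CPM at 48 h (-2.37, SE 0.09, adjusted p = 1.09e-13), after 215 CPM at 24 h.

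Further genes with the largest calls are given singly. TNNT2, cardiac troponin T, was at 41.4, 39 and 44.3 CPM at 72 h, against 15.6, 12.1 and 11 CPM at 48 h (log2 fold change 1.68). The arginine deiminase PADI2 was at 8.6, 8.64 and 7.82 CPM at 72 h, against 2.04, 2.44 and 1.62 CPM at 48 h (2.01). The lipoxygenase ALOX15B, the adhesion molecule ICAM5 and CERCAM rose by 1.65, 1.53 and 1.65. The neurite-growth gene GPRIN1 fell by 1.25 on the log2 scale.

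Of 25 cholesterol synthesis genes and SREBP2 targets 11 rose and 5 fell (median 0.13), with the mevalonate pathway enzyme HMGCS1 at 432, 400 and 431 CPM at 72 h, against 252, 280 and 281 CPM at 48 h (log2 fold change 0.64) and PMVK, a later enzyme of that pathway, at -0.50. Of 20 fatty acid genes 14 rose and 1 fell (median 0.17), or 6 and 0 with effective lengths in the fit. ACSS2, which makes acetyl-CoA from acetate, was the clearest at 134, 135 and 141 CPM at 72 h, against 87.9, 92.5 and 86.2 CPM at 48 h (0.62).

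Transcripts of the mitochondrial genome did not move together. Of 13 mitochondrially encoded mRNAs 2 rose and 6 fell. The complex I subunit MT-ND2 was at 1472, 1565 and 1576 CPM at 72 h, against 2836, 2578 and 2559 CPM at 48 h (log2 fold change -0.79, SE 0.06, edgeR adjusted p = 5.4e-09), and MT-ND1 fell by 0.81. MT-CO1, a cytochrome oxidase subunit, was at 10567, 10996 and 11566 CPM at 72 h, against 9164, 8878 and 8544 CPM at 48 h (0.32). MT-ND6, the only one of these mRNAs read from the light strand, fell by 1.13, and whether the counting used strand is not given in the sources used here. The nuclear respiratory chain genes had 1 of 45 higher and 8 lower, with 4 higher and 7 lower without 72 h replicate 2.

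Long noncoding RNA took a larger share of counts at 72 h, 0.948% to 0.996%, against 0.786% to 0.822% at 48 h. Of 1434 lncRNA genes tested, 201 rose (14%) and 88 fell (6.1%), against 19.5% and 22.5% of 12653 protein-coding genes. A smaller part of the lncRNA genes thus passed in either direction. Their median log2 fold change was 0.12, against -0.01 over the protein-coding genes. MALAT1, a nuclear RNA of splicing speckles, was at 316, 361 and 350 CPM at 72 h, against 103, 117 and 114 CPM at 48 h (1.62, SE 0.06, edgeR adjusted p = 2.59e-13). MIR205HG, the host transcript of an epithelial microRNA, was at 469, 477 and 484 CPM at 72 h, against 229, 229 and 247 CPM at 48 h (1.02). NEAT1, the scaffold of paraspeckles, was at 625, 525 and 484 CPM at 72 h, against 214, 251 and 258 CPM at 48 h (1.18), but its RSEM effective length also differed, 7324 nt at 72 h against 4043 nt at 48 h, and with effective lengths in the fit its log2 fold change was 0.30 (adjusted p = 0.0281). MALAT1 and MIR205HG kept values of 1.75 and 1.01 in that fit.

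**Figure D5:**
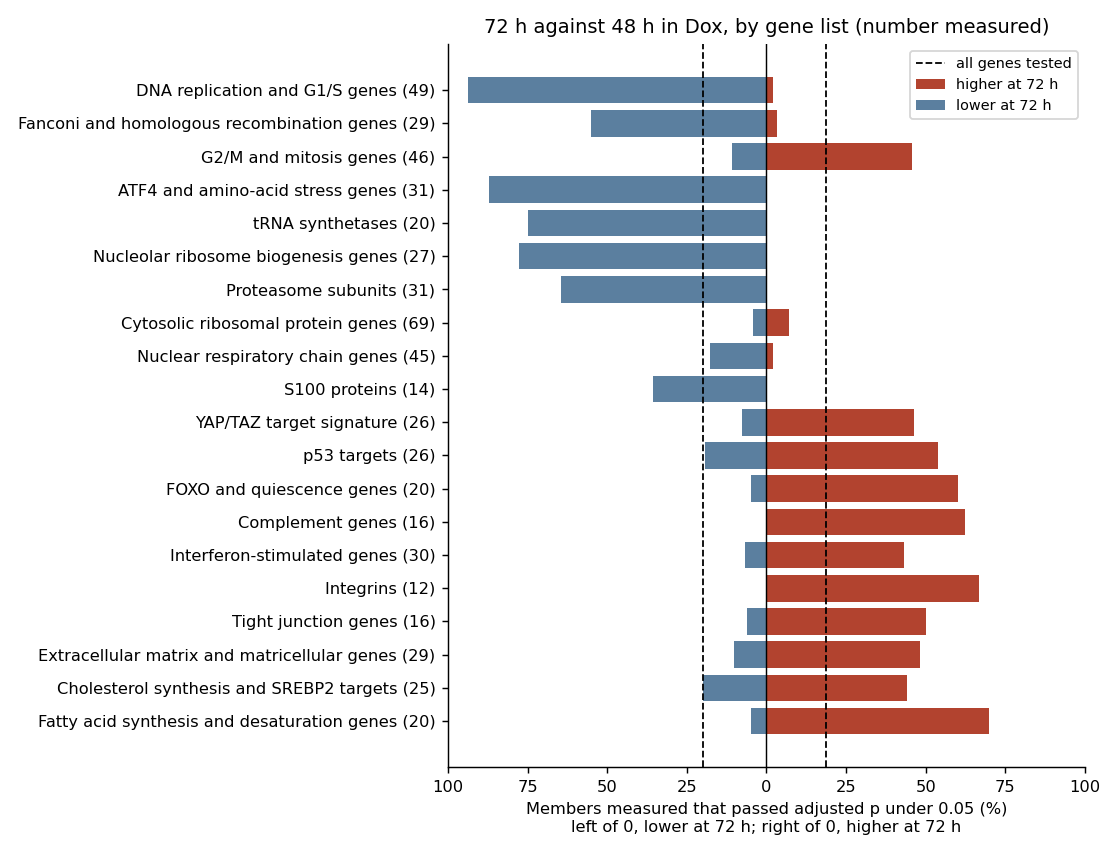
Percent of the measured members of 20 gene lists that passed an edgeR adjusted p under 0.05, drawn to the right (red) where higher at 72 h and to the left (blue) where lower, with the number measured in brackets and dashed lines at the shares over all genes tested (18.6% higher, 20.1% lower). The replication, ATF4, tRNA synthetase, ribosome biogenesis and proteasome lists extend to the left, and fatty acid, integrin, complement and FOXO lists extend to the right.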

How the data were processed

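Poly(A)-selected RNA was made into strand-specific libraries and sequenced as 100-base pairs. Per the labels and methods, the authors mapped them with STAR on GRCh38 and quantified genes by RSEM under GENCODE version 22. Neither tool's version nor RSEM's strand option was given in the sources used here. The deposited expected counts, in which RSEM shares out reads that match more than 1 gene, were rounded and used for every test. The deposited TPM values served only as a check of levels, and the deposited effective lengths (other values, in nt) entered 2 alternative fits. Gene names came from GENCODE version 44. All 12 libraries were fitted in 1 edgeR quasi-likelihood fit (1 coefficient for each group) after filterByExpr and TMM scaling (R 4.3.3, edgeR 4.0.16, DESeq2 1.42.0), and p-values were Benjamini-Hochberg adjusted over 14822 genes. The SE of a log2 fold change is that implied by the F statistic. CPM were scaled by TMM. The code was tested on simulated data. Totals of 15382564 to 26570132 counts per library set the precision, with 3 counts over a group equal to 0.0479 CPM at 72 h and 0.0513 CPM at 48 h. Intervals and floors cover counting error only.

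The comparison, the 66 gene lists and the tests were chosen with earlier results of these data known, so no list is independent support for its direction. The genes named comprise 18 set genes around TAZ, those 12 protein-coding genes called highest and 12 called lowest that had at least 5 CPM, no overlap and no shared-read mark (an SD from shared reads over 5% of the count), and up to 4 members per list with the largest absolute log2 fold change among those that passed adjusted p with at least 5 CPM (the 2 most abundant where none passed); others are said to be chosen after their values were seen, except members given only as part of a list's count. Promoter sequences are from RefSeq (GRCh38.p14), matched by symbol for 10819 of the tested genes (73%). The length check used genes of at least 5 CPM. Alternatives were other scaling factors and filters, effective lengths, glmTreat, DESeq2, a fit of only the 6 libraries, a block for replicate number, and dropping 1 library at a time. Not every gene this rule takes is reported here, and FPKM values were not used here.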

Additional observations from a re-analysis of the deposited data

Results flagged for a closer look

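For 5 genes the step from 48 to 72 h was called as differing from the step from 24 to 48 h by a test of that difference itself, and both steps had been past the 2-fold threshold in opposite directions. All are differences of log2 steps from edgeR, and both steps share the 48 h libraries. The largest was that of CHAC1, at -5.06 (SE 0.25, adjusted p = 5.74e-12), made of -2.16 and 2.90. S100A9 had -4.71 (SE 0.15, adjusted p = 4.64e-15), made of -3.55 and 1.16, and S100A8 had -4.34 (SE 0.25, adjusted p = 9.52e-11), made of -2.99 and 1.35. SLC6A9 had -3.45 (SE 0.15, adjusted p = 6.36e-13) and SESN2 -2.39 (SE 0.14, adjusted p = 9.82e-11). In each gene all 72 h libraries were below all 48 h libraries, from which the calls were also made.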

How the results depend on the processing

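The counts of genes called kept within 1.5 times their value under most alternatives. The test against the 2-fold threshold (glmTreat) gave 18 higher, 8 lower and 90 with a differing step, a stricter question by construction. With effective lengths in edgeR, 1749 genes were higher at adjusted p alone, against 2763. In the main fit the genes higher at adjusted p had a median effective length of 2586 nt and those lower 1947 nt. Over all genes tested it was 1992 nt. Leaving out each library in turn gave 306 to 350 called higher, 123 to 141 called lower, 2350 to 2503 higher and 2404 to 2693 lower at adjusted p alone, and 374 to 452 with a differing step. Replicate numbers did not pair the libraries (correlations of 0.017, 0.063 and -0.205 for equal numbers), and a fit with the replicate block gave 338 called higher, 140 lower, 2804 and 3073 at adjusted p alone and 441 with a differing step. Of 4192 values for the 262 genes the naming rule takes, 4043 kept direction and side of the threshold, 130 lost significance (63 of them with effective lengths), 14 gained it and 5 changed sign. The sign changes, all with effective lengths, were ATF3 (0.00 and 0.01), ITGB6 (-0.02) and CD47 (-0.03 and -0.02), and the cause was not tested. Genes with few counts have wide intervals, as DEPP1 shows.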
